A study of Homo sapiens with 6 samples.

Results

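The genes described here are 10 genes of the AP-1 and immediate-early response, namely FOS, FOSL1, FOSL2, JUN, JUNB, JUND, MAFF, EGR1, IER2 and IER3, taken from the 32029 genes of the count tables by an exact match of the gene name. All 10 were found, 1 row each, and all 10 passed the filter on low counts. All cultures were of SW480, an established line from a human colorectal adenocarcinoma, of which 3 received a control siRNA (siNC, the siControl of the study) and 3 an siRNA against ZEB1 (siZEB1). RNA was taken 48 h after transfection, and the sources used here give neither the siRNA sequences nor any stimulus before harvest. The design therefore covers 1 cell line at 1 time. ZEB1 is a zinc finger and homeodomain repressor that binds E-box sequences.

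AP-1 is a dimer of basic leucine zipper proteins, in which a JUN protein pairs with a FOS protein, with another JUN or with an ATF protein, and binds the TPA response element or the related cAMP response element. JUN, JUNB and JUND can pair with each other, whereas FOS proteins need a JUN partner. FOS, EGR1 and IER2 are immediate-early genes, transcribed within minutes of growth factor or stress signals without new protein synthesis, largely through the serum response factor and the MAP kinases. In colorectal cancer cells with an active RAS pathway, FOSL1 and JUN are long known as outputs of ERK and JNK signaling.

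Each library held between 19040636 and 22357633 counted reads, and the biological coefficient of variation was 6.58%. ZEB1 had 1247, 1276 and 908 reads with siNC and 136, 132 and 162 with siZEB1. In each group replicate 3 stood apart, at 9.53 and 7.18 times the sampling noise from siNC replicates 1 and 2, against 3.62 between those, and at 4.92 and 6.97 times from siZEB1 replicates 1 and 2, against 2.26. The keratins KRT8 and KRT18 were abundant in all cultures, at 3455 and 1418 CPM with siNC, while the colonic marker KRT20 was near the limit of detection, with 2 to 20 reads per culture. Of the 7 epithelial markers followed, those 3 were not called, while EPCAM, VIL1 and KRT19 were higher with siZEB1, by 3.05, 2.34 and 1.62 on the log2 scale, and CDX2 was lower, at 103 CPM with siNC and 41.8 CPM with siZEB1 (edgeR, adjusted p under 0.05 for all 4). Annotated exons on the opposite strand cover 44.0% of the exonic bases of VIL1. Markers of fibroblasts summed to 79 to 97 reads per siNC library and 102 to 112 per siZEB1 library, and those of leukocytes and endothelium to at most 23 and 61. These sums leave out DCN, PTPRC, CDH5 and KDR, which were not among the genes counted. Exons of other genes on the same strand cover 81.7% of the exonic bases of the leukocyte marker CD68. PDGFRB, the only fibroblast marker tested, was called higher with siZEB1, by 0.42 on the log2 scale. The part of these markers in the results was not tested. The study calls the 3 samples of a group biological replicates, and the p-values measure the spread between them.

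Promoter windows from 250 bases before to 50 after the annotated start were matched by symbol in RefSeq (GRCh38.p14) for 8 of the 10 genes, in 9 windows, FOSL1 and IER3 being the ones without a window. The matches below are shown because their letters are those that AP-1, ATF and serum response factor proteins are known to bind. A match describes the letters and is not a measured binding site. The TPA response element, searched as TGANTCA on both strands, was found in the FOSL2 window (chr2:28392854-28392876, plus strand). It began at position 5, with the start base counted as position 1. Its variant with 1 more base, TGACNTCA, which includes the cAMP response element, was found in the windows of JUN (chr1:58784099-58784122, minus strand), JUND (chr19:18281807-18281830, minus strand) and MAFF (chr22:38201932-38201955, plus strand). The CArG box, the binding element of the serum response factor, was found 2 times in the EGR1 window (chr5:138465366-138465391 and chr5:138465388-138465413, plus strand), starting 105 and 83 bases before the start. No match of one motif overlapped a match of another kind. Capitals mark the motif and lower case the 8 bases on either side.
FOSL2: cattgtagTGACTCAtctcgggc
JUN: ccttggggTGACATCAtgggctat
JUND: cgcccccaTGACGTCAacccacaa
MAFF: cgggtcggTGACGTCAccgcatga
EGR1, upstream CArG box: cggtcctgCCATATTAGGgcttcctg
EGR1, downstream CArG box: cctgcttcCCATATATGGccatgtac

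Of 35116 promoter windows of the same length in the table, 7.71% held TGANTCA, 7.72% TGACNTCA and 1.29% a CArG box. The E-box CAGGTG, which ZEB1 can bind, was in 20.6% of all windows and in 0 of the 9 windows of these genes, a statement about these letters in these windows only.

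The 10 genes did not move together. With siZEB1, FOSL2, JUN and FOS were lower, IER2, MAFF, EGR1 and IER3 were higher, and FOSL1, JUNB and JUND were not called. A gene was called where the quasi-likelihood test of edgeR gave an adjusted p below 0.05. These 7 calls of 10 stand beside 40.2% called among the 14996 genes tested, with 3 of 10 lower beside 21.2% and 4 of 10 higher beside 19.0%. The median log2 fold change of the 10 genes was 0.049 and that of all tested genes -0.0055. By a fold change above 1.5, a size the study used, with an unadjusted p-value under 0.05, which 16.6% of tested genes met (7.21% higher and 9.35% lower), FOSL2 was the only member past the limit. In CPM, the counts per unit of TMM-scaled sequencing depth, the groups did not overlap at the 7 called genes, as they did not at 49.5% of all tested genes.

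**Figure D1:**
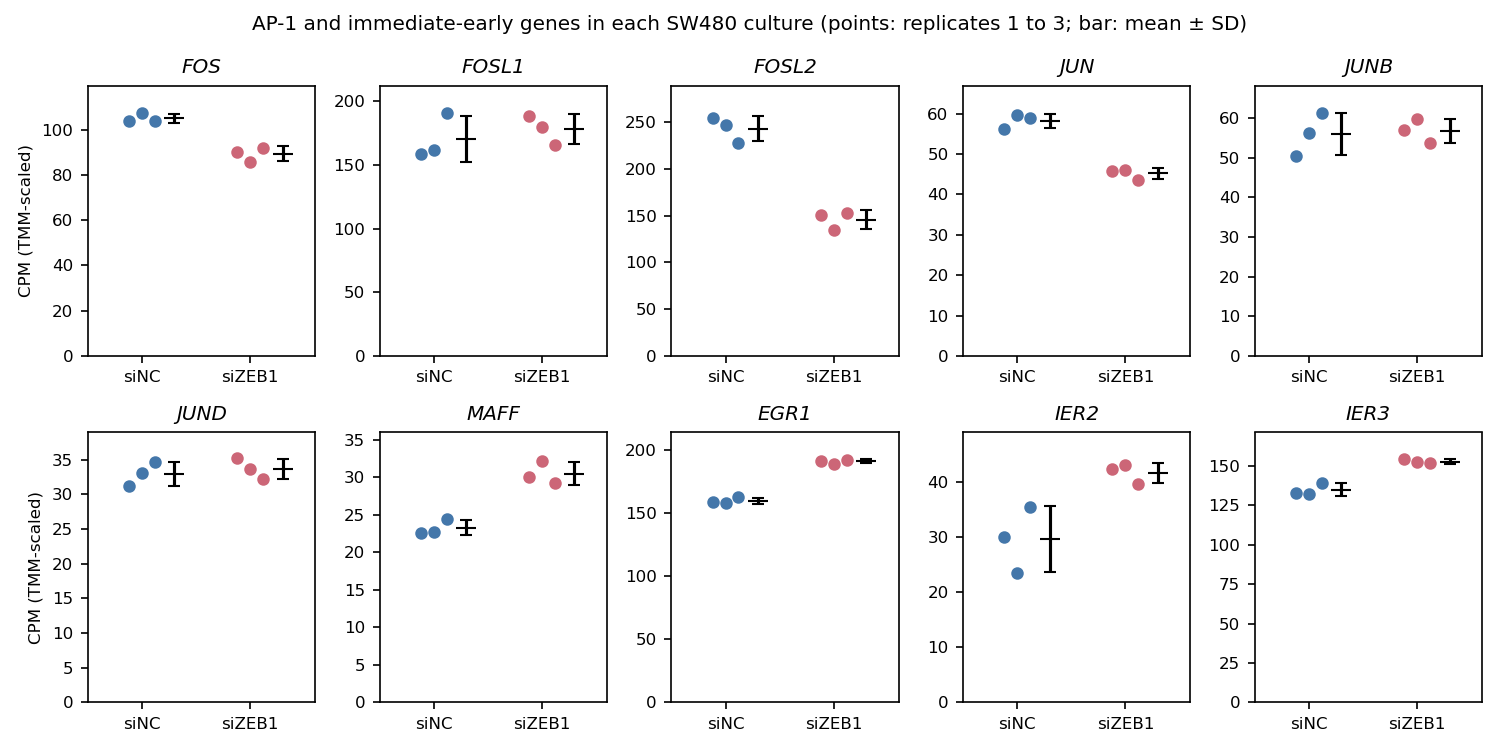
TMM-scaled CPM (vertical axis, from 0) of each of the 10 genes in the 3 siNC (blue) and 3 siZEB1 (red) cultures, with the mean and SD in black. FOSL2 falls from 228 or more to 153 or less, FOS and JUN fall less, MAFF, EGR1, IER2 and IER3 rise, and the groups overlap at FOSL1, JUNB and JUND.

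Among the FOS proteins, which do not bind DNA without a JUN partner, FOSL2 (FRA-2, chromosome 2 from 28392448 to 28417312) showed the largest change of the 10 genes. Its level was 254, 247 and 228 CPM in siNC replicates 1, 2 and 3 and 150, 134 and 153 CPM in the siZEB1 replicates. Even the lowest siNC culture lay well above the highest siZEB1 culture. Group means were 243 ± 13.4 and 146 ± 9.91 CPM (SD, n = 3 each), and on the log2 scale FOSL2 fell by 0.74 (SE 0.066, edgeR, adjusted p = 1.51e-07). FOSL2 was called in all 12 alternative analyses, with log2 fold changes from -0.78 to -0.68, and 87.7% of tested genes changed by less in absolute value.

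FOS (chromosome 14 from 75278774 to 75282230), the founding member and the one most sharply induced by serum, was at 104, 107 and 104 CPM with siNC and at 90.3, 85.9 and 92.1 CPM with siZEB1. The groups were separate although the difference was small, since replicates lay close together. FOS fell by 0.23 on the log2 scale (SE 0.062, edgeR, adjusted p = 0.00654), a change of -14.9%, and the call held in 11 of 12 alternatives (highest adjusted p = 0.0509). Of all tested genes, 47.4% changed by less in absolute value.

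FOSL1 (FRA-1, chromosome 11 from 65892049 to 65900573), the FOS protein most tied to ERK signaling and invasion, was at 158, 161 and 191 CPM with siNC and 189, 180 and 165 CPM with siZEB1. The ranges overlapped widely, and siNC replicate 3 lay above every siZEB1 culture. The log2 fold change was 0.065, with a 95% interval from -0.093 to 0.22 (edgeR, adjusted p = 0.521), which leaves room for a small fall or a modest rise. Without siNC replicate 3 the value was 0.15, still not called (adjusted p = 0.0638).

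The fourth FOS gene, FOSB, is not among the 10 and was on a list of related genes. It had 154, 132 and 152 reads in the siNC libraries, and 221, 234 and 213 in the siZEB1 libraries, and rose by 0.74 on the log2 scale (SE 0.12, edgeR, adjusted p = 0.000117). FOSL2 and FOSB, the scarcest gene of the family, thus changed by the same size in opposite directions.

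Among the JUN proteins, JUN itself (chromosome 1 from 58780788 to 58784327), the strongest activator of the 3 and a target of the JNK kinases, was lower with siZEB1. It was at 56.3, 59.6 and 58.8 CPM with siNC and 45.9, 46.1 and 43.7 CPM with siZEB1. The groups were clearly separate. Group means were 58.2 ± 1.73 and 45.2 ± 1.36 CPM (SD, n = 3 each), and JUN fell by 0.36 on the log2 scale (SE 0.068, edgeR, adjusted p = 0.000379), and the call held in all 12 alternatives.

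JUNB (chromosome 19 from 12791496 to 12793315), a weaker activator that can hold JUN activity in check, was at 50.5, 56.1 and 61.2 CPM with siNC and 56.9, 59.7 and 53.6 CPM with siZEB1. The siZEB1 values all lay inside the siNC range. The log2 fold change was 0.022, with a 95% interval from -0.14 to 0.19 (edgeR, adjusted p = 0.855). Its sign turned in 2 of the 12 alternatives. On the opposite strand, exons of HOOK2 cover 14.2% of the exonic bases of JUNB. Where the counting did not use the strand, reads there could be credited to either gene or left out. HOOK2 had 370 to 435 reads with siNC and 542 to 612 with siZEB1.

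JUND (chromosome 19 from 18279760 to 18281622), known for a steady level in many tissues, was at 31.2, 33.0 and 34.6 CPM with siNC and 35.2, 33.6 and 32.2 CPM with siZEB1. The groups overlapped here too. The log2 fold change was 0.033, with a 95% interval from -0.13 to 0.20 (edgeR, adjusted p = 0.762), and its sign turned in 1 alternative.

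MAFF (chromosome 22 from 38200767 to 38216511) is a small MAF protein, a basic leucine zipper without an activation domain of its own that pairs with CNC proteins such as NRF2 and BACH1. It was at 22.6, 22.7 and 24.4 CPM with siNC and 30.0, 32.2 and 29.3 CPM with siZEB1. No siNC culture reached the lowest siZEB1 culture. MAFF rose by 0.39 on the log2 scale (SE 0.080, edgeR, adjusted p = 0.000867), called in all 12 alternatives. The other small MAF genes were not called, with log2 fold changes of 0.028 for MAFG and 0.11 for MAFK.

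EGR1 (chromosome 5 from 138465490 to 138469315), a zinc finger factor and the textbook target of serum response factor at CArG boxes such as those printed above, was at 159, 158 and 163 CPM with siNC and 192, 189 and 193 CPM with siZEB1. It was the tightest of the 10 genes, with a within-group SD of 0.018 on the log2 CPM scale against a median of 0.13 for all tested genes. EGR1 had 3137 to 3687 reads per culture, and that median includes genes with far fewer reads and so more counting noise. EGR1 rose by 0.26 on the log2 scale (SE 0.056, edgeR, adjusted p = 0.00129), or 19.7% higher, and the call held in all 12 alternatives.

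IER2 (chromosome 19 from 13150415 to 13154908), a nuclear protein of the immediate-early response, varied most between cultures. It was at 30.0, 23.5 and 35.4 CPM with siNC and 42.4, 43.2 and 39.7 CPM with siZEB1. The groups were separate, but the siNC cultures alone spread over a wide range. IER2 rose by 0.50 on the log2 scale (SE 0.11, edgeR, adjusted p = 0.0016), and the call held in all 12 alternatives, although the value ran from 0.35 without siNC replicate 2 to 0.64 without siNC replicate 3. Annotated exons on the opposite strand cover 30.8% of its exonic bases.

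IER3 (IEX-1, chromosome 6 from 30743199 to 30744554) is an early response gene whose protein acts in survival signaling and is not a DNA-binding factor, so that it belongs to the group by its induction. It was at 133, 132 and 139 CPM with siNC and 154, 152 and 152 CPM with siZEB1. The groups did not overlap. The log2 fold change was 0.18 (SE 0.058, edgeR, adjusted p = 0.0201), the smallest among the 7 called genes. The call was lost in 6 of 12 alternatives, among them those without siNC replicate 1, siNC replicate 2, siZEB1 replicate 1 or siZEB1 replicate 2 (adjusted p = 0.0588, 0.094, 0.0862 and 0.0591) and the one with no filter on low counts (adjusted p = 0.0502), and the highest adjusted p was 0.112. Its antisense neighbour IER3-AS1 shares 26.5% of its exonic bases and had 1 read in the 6 cultures.

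**Figure D2:**
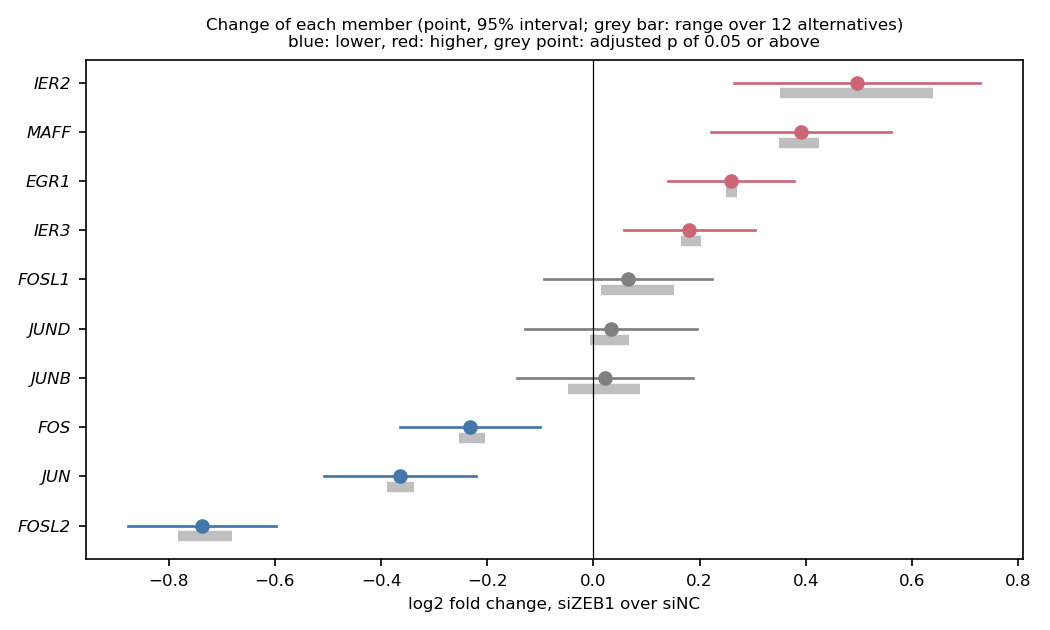
Log2 fold change of siZEB1 over siNC (horizontal axis) for each of the 10 genes, with the 95% interval as a line and the range over 12 alternative analyses as a grey bar. FOSL2, JUN and FOS lie below 0 and IER3, EGR1, MAFF and IER2 above it, while the intervals of JUNB, JUND and FOSL1 include 0.

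All 7 calls were kept without siNC replicate 3, and likewise without siZEB1 replicate 3. Without the former, the log2 fold changes were -0.78 for FOSL2, -0.36 for JUN, -0.24 for FOS, 0.20 for IER3, 0.27 for EGR1, 0.42 for MAFF and 0.64 for IER2. Without the latter, the values ran from -0.77 for FOSL2 to 0.53 for IER2. Across the group, siNC replicate 3 was the highest siNC culture for FOSL1, JUNB, JUND, EGR1, IER2, IER3 and MAFF and the lowest for FOSL2.

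Levels of different genes were compared as CPM per kb of annotated exons (GENCODE 29, GRCh38, all transcripts of a gene merged). A gene whose used transcript is shorter than that union is understated, as may hold for MAFF with 5615 exonic bases and FOS with 3238. The order of the genes and the family shares below depend on these lengths. With siNC, IER3 (99.4 CPM per kb) and FOSL1 (90.2) came first, and their ranges over cultures overlapped. EGR1 followed alone at 50.9. FOSL2, FOS and JUNB, at 33.9, 32.5 and 30.7, could not be ordered, nor could JUND and JUN, at 17.7 and 16.5. IER2 (9.65) and MAFF (4.14) were the lowest.

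With siZEB1, IER3 (113 CPM per kb) lay above FOSL1 (94.3) without overlap, followed by EGR1 at 61.0. JUNB (31.2), FOS (27.6) and FOSL2 (20.4) were now separated from each other, and FOSL2 lay below the other 2, overlapping JUND (18.1). JUN, which lay above IER2 with siNC, now overlapped it, at 12.8 and 13.6 CPM per kb. MAFF stayed lowest, at 5.43.

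**Figure D3:**
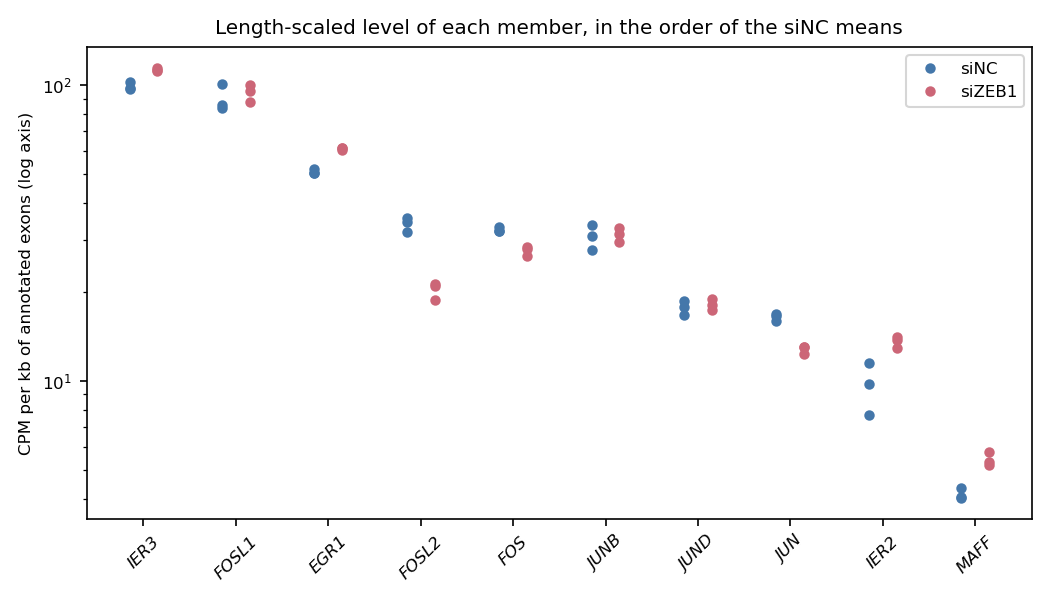
CPM per kb of annotated exons (vertical log axis) of each gene in every siNC (blue) and siZEB1 (red) culture, ordered by the siNC mean. IER3, FOSL1 and EGR1 stand above the others in both groups, and FOSL2 drops from 33.9 to 20.4, next to JUND.

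Shares of each gene within its family were taken from the same length-scaled levels, with the same limit. FOSL1 made up 54.9%, 55.5% and 60.7% of the FOS family (FOS, FOSB, FOSL1 and FOSL2) with siNC and 66.2%, 66.7% and 62.9% with siZEB1. FOSL2 held 23.2%, 22.3% and 19.1% and then 13.9%, 13.1% and 15.3%. The groups did not overlap for either gene. Shares within a family are tied to each other, and the level of FOSL1 itself was not called. FOSB rose from 0.798% ± 0.095 to 1.46% ± 0.071 (SD, n = 3 each), whereas the ranges of FOS, at 20.6% ± 1.16 and 19.2% ± 1.08, overlapped.

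In the JUN family, JUN held 26.3%, 25.8% and 24.1% with siNC and 20.5%, 20.4% and 20.9% with siZEB1. JUNB was the largest part in every culture, at 47.3% ± 1.48 and 50.2% ± 0.965, and JUND held 27.3% ± 0.399 and 29.2% ± 0.826 (SD, n = 3 each). The summed FOS family level was 158 ± 7.50 CPM per kb with siNC and 144 ± 5.89 with siZEB1, without overlap, and the summed JUN family level was 64.9 ± 4.25 and 62.0 ± 2.60, with overlap.

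**Figure D4:**
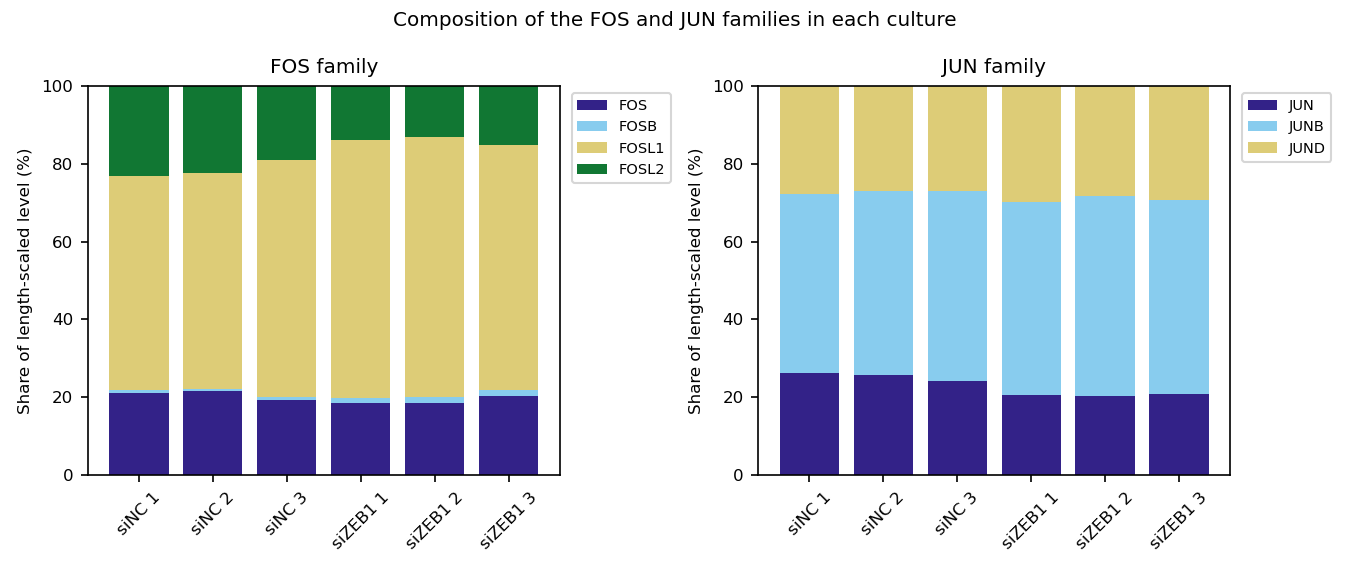
Share in percent (vertical axis) of each gene in the length-scaled level of the FOS family (left) and the JUN family (right), 1 bar per culture. The FOSL2 part is 19.1% or more in the siNC bars and 15.3% or less in the siZEB1 bars, and the JUN part is 24.1% or more against 20.9% or less.

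Ratios of reads between relatives within a culture do not depend on how libraries are scaled, and 4 of them were compared by a two-sided exact permutation test over cultures, in which the smallest p that 3 against 3 allows is 0.1. The log2 ratio of FOSL1 to FOSL2 was -0.68, -0.61 and -0.26 with siNC and 0.33, 0.42 and 0.12 with siZEB1. Where the zero of a read ratio falls depends on the lengths of both genes, and per kb FOSL1 was above FOSL2 in both groups. The groups did not overlap, and the difference of 0.81 reached the smallest exact p (0.1, adjusted over the 4 ratios 0.2). The log2 ratio of JUN to JUND fell by 0.40, from 0.82 ± 0.050 to 0.43 ± 0.037 (SD, n = 3 each, exact p = 0.1, adjusted 0.2). Both ratios combine the changes of single genes given above, of which FOSL1 and JUND were not called. They are therefore no separate evidence.

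The ratio of JUNB to JUND, at 0.76 ± 0.064 and 0.75 ± 0.068 on the log2 scale, differed by less than its spread (exact p = 1.0). The log2 ratio of FOS to FOSL1 was -0.69 ± 0.16 and -0.99 ± 0.13 (SD, n = 3 each), and the groups overlapped (exact p = 0.2, adjusted 0.267).

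Of 15 further AP-1, MAF and BACH genes, 14 were tested, and 5 were higher and 3 lower with siZEB1 (57.1% called, beside the 40.2% of all genes), with a median log2 fold change of 0.068. FOSB is given above. ATF7, an AP-1 partner bound at cAMP response elements, rose by 0.71 on the log2 scale, from 15.2 ± 1.57 to 24.8 ± 0.958 CPM (SD, n = 3 each, SE 0.093, edgeR, adjusted p = 1.23e-05). Annotated exons of other genes cover 18.25% of its exonic bases on the same strand and 27.12% on the opposite strand. BATF2 and BATF3 rest on few reads. BATF2, a zipper protein known from interferon responses, had 17, 15 and 17 reads with siNC and 1, 7 and 4 with siZEB1 (edgeR, adjusted p = 0.00602). BATF2 passed the filter on low counts only through its siNC cultures, so its call is no more than a description. BATF3 had 58, 35 and 42 and then 23, 24 and 23 reads (adjusted p = 0.0193), and its call was lost without siNC replicate 1 or siZEB1 replicate 1.

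Of 26 other immediate-early genes, 25 were tested, with 9 higher and 7 lower (64.0% called, beside 40.2% of all tested genes). The median change was 0.056 on the log2 scale. FOSB and ATF3 belong to this list as well as to the one above. The largest called changes went both ways. ZFP36 (tristetraprolin, which destabilizes AU-rich mRNAs) rose by 0.70 on the log2 scale, from 25.3 ± 0.990 to 41.0 ± 3.15 CPM (SE 0.081, edgeR, adjusted p = 2.98e-06). CCN1, a matrix protein induced by serum, rose from 147 ± 2.52 to 238 ± 2.34 CPM (log2 fold change 0.69, SE 0.056, adjusted p = 4.13e-08; SD, n = 3 each).

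SGK1, a serum-induced kinase, fell from 8.67 ± 0.677 to 5.41 ± 0.754 CPM (log2 fold change -0.68, edgeR, adjusted p = 0.000597). NR4A2 had only 28, 47 and 21 reads and then 57, 41 and 43 (edgeR, adjusted p = 0.0406). In 4 of 12 alternatives it was not called, among them without siNC replicate 1, siNC replicate 3 or siZEB1 replicate 1. MYC, named after its value was seen, fell by 0.64 on the log2 scale, from 519 ± 9.29 to 332 ± 10.9 CPM (SD, n = 3 each, SE 0.053, edgeR, adjusted p = 5.47e-08).

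All 21 kinases and factors upstream of these genes were tested, and 5 were higher and 6 lower. The share called was 52.4%, beside 40.2% of all tested genes, and the median log2 fold change of the list was -0.019. Serum response factor itself was at 93.4 ± 3.07 and 96.6 ± 8.32 CPM (SD, n = 3 each; edgeR, adjusted p = 0.621). Of its ETS partners, ELK1 was not called (log2 fold change -0.019, edgeR, adjusted p = 0.858), and the others differed in direction, ELK3 falling by 0.66 on the log2 scale (SE 0.069, edgeR, adjusted p = 9.68e-07) and ELK4 rising by 0.45 (SE 0.088, adjusted p = 0.000566). Its cofactors MRTFA and MRTFB rose by 0.30 and 0.41 on the log2 scale (edgeR, adjusted p = 0.00791 and 0.00499). The MAP kinase kinase MAP2K2 fell by 0.52 (SE 0.070, edgeR, adjusted p = 1.72e-05) and the p38 kinase MAPK14 by 0.73 (SE 0.074, adjusted p = 6.86e-07). RPS6KA2, at 6, 7 and 6 reads with siNC and 16, 18 and 26 with siZEB1, had a log2 fold change of 1.77 (edgeR, adjusted p = 0.00148). RPS6KA2 passed the filter on low counts only through its siZEB1 cultures, so its call is no more than a description.

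Of 16 genes known as AP-1 targets, 15 had a row in the tables and 10 passed the filter, those below it being the metalloproteases MMP1, MMP9, MMP10 and MMP13 and the chemokine CXCL8. Of the 10, 4 were lower and 3 higher (70.0% called, beside 40.2% of all tested genes). The median change was -0.12 on the log2 scale. Cyclin D1 (CCND1), which drives entry into the cell cycle, fell by 0.55 on the log2 scale, from 1406 ± 60.4 to 961 ± 54.8 CPM (SD, n = 3 each, SE 0.054, edgeR, adjusted p = 4.83e-07). TIMP1, an inhibitor of matrix metalloproteases, fell by 0.45 on the log2 scale (SE 0.087). VEGFA and the membrane linker ezrin (EZR) rose by 0.51 (SE 0.066) and 0.38 (SE 0.050), each with adjusted p-values under 0.05 in edgeR's test.

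As a record of stress at harvest, 9 heat shock genes were followed. With siZEB1, 3 were higher and 0 lower (33.3% called, beside 40.2% of all tested genes). Those higher were HSPE1, HSPD1 and HSP90AA1, by 0.51, 0.43 and 0.23 on the log2 scale. Values of all 9 genes ran from 0.0047 to 0.51 on that scale, around a median of 0.10. The inducible HSP70 genes HSPA1A and HSPA1B, which were not called and whose near-identical sequences make the split of reads between them uncertain, had log2 fold changes of 0.15 and 0.053 (edgeR, adjusted p = 0.125 and 0.597). Their part in the changes of the immediate-early genes was not tested.

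**Figure D5:**
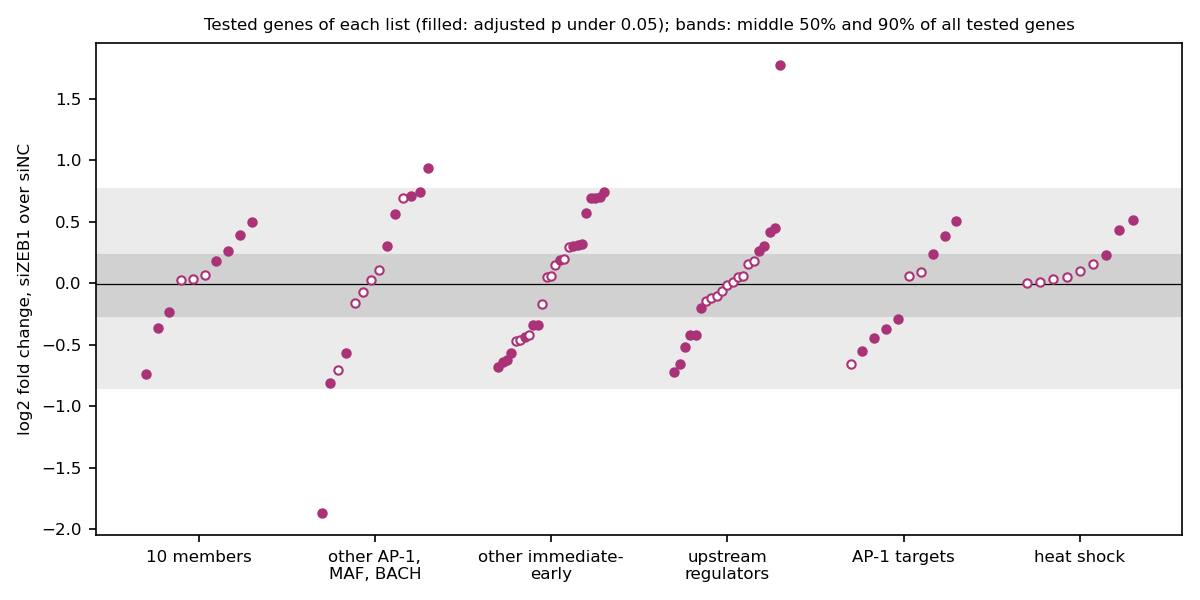
Log2 fold change of siZEB1 over siNC (vertical axis) of the tested genes of 6 lists, filled where the adjusted p was under 0.05, over bands that hold the middle 50% and 90% of all 14996 tested genes. Each list but heat shock has called genes on both sides of 0, and the 10 members stay between -0.74 and 0.50.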

How the data were processed

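RNA of 3 siNC and 3 siZEB1 SW480 cultures was sequenced on an Illumina instrument. The authors deposited raw counts of reads per Ensembl gene, 1 table per culture. The submitters' processing notes name Trimmomatic, HISAT2, SAMtools, featureCounts and hg38, while versions, annotation and strand setting are not given in the sources used here. Groups and replicate numbers came from the sample titles.

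Genes passing edgeR's filterByExpr (14996 of 32029) were TMM-normalized and compared with the two-sided quasi-likelihood F-test of edgeR (Benjamini-Hochberg adjustment over all of them, calls at an adjusted p under 0.05). Standard errors are the log2 fold change over the square root of F. Ratios carry a pseudocount of 0.5 reads. The code was tested on simulated data. R 4.3.3, edgeR 4.0.16, DESeq2 1.42.0 and Python 3.11.15 were used. Of the identifiers, 31059 were in GENCODE 29, the source of positions and lengths.

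The members and lists were chosen with earlier results of these data known. Named genes were the 10 members, ZEB1, the 5 called genes with the largest change in each of 4 related lists, and the 5 genes closest to the most changed member. Some genes that this rule names are not reported here. Others named give a list, overlap or marker its values. The 12 alternatives for a gene were DESeq2, other size factors, other filters, a replicate block and 6 fits that each left out 1 culture. A rule of a fold change above 1.5, as in the study, with an unadjusted p under 0.05 was applied to the numbers of genes called only. It is not among the 12, and the study also names a stricter p.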

Additional observations from a re-analysis of the deposited data

How the results depend on the processing

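Named genes were refitted under 12 alternatives, or 11 for BATF2 and RPS6KA2, which a minimum of 10 counts in every culture left out. FOSL2, JUN, EGR1, IER2 and MAFF kept their direction and their call in all 12. The numbers of members called went from 4 higher and 3 lower to 0 and 1 under the rule of a fold change above 1.5 with an unadjusted p under 0.05, and those of all genes to 1081 and 1402. Under this rule, 5 of the other AP-1, MAF and BACH genes, 7 of the other immediate-early genes, 3 upstream genes and 0 AP-1 targets were called, against 8, 16, 11 and 7. No other setting moved a count by over 1.5 times. With 1 culture left out in turn, 3 or 4 members were higher and 3 lower. With 1 culture left out, JUNB ran from -0.049 to 0.088, below 0 without siNC replicate 1 or siZEB1 replicate 2 (-0.016), and JUND from -0.0058, without siNC replicate 1, to 0.067. The difference in the log2 ratio of JUNB to JUND, -0.0094, ran from -0.047 to 0.022 with 1 culture left out. Other size factors moved the median log2 fold change of all genes from -0.0055 to -0.014 or 0.0021.

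Deviations from the group means correlated at -0.052, -0.088 and -0.20 between cultures of the same number. Between cultures of different numbers they correlated at -0.071 to 0.14. No deviation shared by number was seen, but deviations centred on groups of 3 cannot show whether cultures were handled in pairs. With the replicate number as a block, FOS (adjusted p = 0.0509) and IER3 (adjusted p = 0.112) were not called, which left 3 members higher and 2 lower, and all other members kept their call.

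Depth limited BATF2, BATF3, RPS6KA2 and NR4A2, which had fewer than 60 reads in each culture.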

Other observations

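The 5 tested genes whose log2 CPM over the 6 cultures followed that of FOSL2 most closely, each gene centred on its own mean, were MAPK14, HIPK2, ATXN2, NSF and LARP1. Their root mean square differences from FOSL2 were 0.033, 0.036, 0.040, 0.041 and 0.041 on the log2 scale. MAPK14, the p38 alpha kinase, went from 99.8 to 60.4 CPM, and LARP1, an RNA-binding protein of mRNAs for the translation machinery, from 603 to 373 CPM. Since the genes were picked for this likeness, their log2 fold changes, between -0.75 and -0.69 beside -0.74 for FOSL2, follow from the choice and are a description.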
